A study of Homo sapiens with 6 samples.

Results

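The chromatin-modifying enzymes of T47D cells, a luminal-like human breast cancer line that expresses estrogen and progesterone receptors, were measured by RNA sequencing in normoxia and after hypoxia. The genes were taken by name: the numbered lysine demethylase, methyltransferase and acetyltransferase families, histone deacetylases, sirtuins, DNA methyltransferases, TET and JMJD genes and PHF2 and PHF8. The pattern matched 84 names, and a mean of at least 10 reads over the 6 libraries left 80 genes of the 27754 listed. The 4 names under that limit were DNMT3L, KDM4E and 2 genes of chromosome Y. The 80 genes comprised 25 oxygen-dependent dioxygenases (22 with a JmjC domain and 3 TET genes) and 55 other enzymes, and all 80 passed the filter on low counts. The rule used gene names and read depth.

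The 3 normoxia libraries came from cells kept at 20% oxygen, and the 3 hypoxia libraries from cells kept for 48 h in a chamber set to 0.5% oxygen. Both conditions used the same unedited line in adherent culture with serum. The labels give the oxygen level quoted here, and the text of the study gives a different one. One line was used. The labels do not say whether replicates were separate cultures, while the study describes its experiments as independent and its hypoxia and normoxia samples as paired. The p-values measure the spread between these libraries.

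Histone lysine methyl groups are removed by 2 kinds of enzyme. The JmjC demethylases use molecular oxygen, iron and 2-oxoglutarate, as do the TET enzymes, which oxidize 5-methylcytosine in DNA, whereas KDM1A and KDM1B use flavin and also consume oxygen. The methyltransferases that place the marks draw on S-adenosylmethionine, acetyltransferases on acetyl-CoA, sirtuins on NAD, and the remaining histone deacetylases on zinc. Several JmjC genes are long known as targets of the hypoxia-inducible factors (HIF), so the amount of enzyme mRNA and the oxygen available to the enzyme can move in opposite directions. The libraries report mRNA, not enzyme activity or histone marks.

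Libraries held between 32989104 and 89883409 counted reads, the most in hypoxia replicate 3. Replicate 3 stood apart in both conditions: the chi-square per degree of freedom between it and the other libraries of its condition was 36.6 to 72.6, against 6.38 and 8.47 between replicates 1 and 2. A list of 8 HIF target genes rose in 8 of 8 cases, with a median log2-fold change of 3.53. The luminal markers KRT8, KRT18, KRT19, EPCAM and CDH1 were expressed and did not pass the test, while 4 of 9 markers on that list fell, led by PGR (−2.93) and ESR1 (−1.86). With the replicate number as a block, a term that compares libraries of the same number, KRT8 and KRT18 were lower and CDH1 higher, so that 6 of 9 fell and 1 rose. Endothelial markers summed to at most 0.656 CPM (counts scaled to a common library size by TMM factors) in any library. Fibroblast and basal lists summed to 77.4 to 99.7 and 179 to 238 CPM, nearly all from COL1A1 and ITGB4, neither of which passed the test. KRT17, PDGFRB and the macrophage marker CD68 passed as higher, and PTPRC, CD3E, DCN, LUM and PECAM1 had at most 10 reads in any library. In such bulk samples, fewer cells of a type and less RNA per cell cannot be told apart.

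In hypoxia 24 of the 80 enzyme genes were higher and 18 lower, and the other 38 missed the threshold of 0.05 on the adjusted p from the quasi-likelihood test of edgeR. These are 30% higher and 22.5% lower, and among all 15657 genes tested 59.5% passed, with 30.4% higher and 29.1% lower. The dioxygenases split into 9 higher, 4 lower and 12 that did not pass. The other enzymes split into 15, 14 and 26 in that order. The library ranges of the conditions were separate in 48 enzyme genes (15 dioxygenases and 33 others), where they were separate in 67.3% of all tested genes, with hypoxia above in 34.9% and below in 32.4%. The median log2-fold change was 0.060 over the dioxygenases and −0.063 over the other enzymes, beside 0.028 over all tested genes, so both medians were small. The shares of dioxygenase genes (36% higher, 16% lower) and of other enzymes (27.3% and 25.5%) lay on either side of that of all genes for rises and below it for falls, and no test was made of that difference. With upper-quartile factors, which raise the median of all genes to 0.19, the other enzymes held 18 higher and 11 lower (62.1% of calls higher, against 51.7%) and all genes 5972 and 3285 (64.5% against 51.1%). Every fold change given is hypoxia over normoxia, and every adjusted p is from this test over all genes unless said otherwise.

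These counts moved with the libraries, as did those of all genes. With replicate 1 left out of both conditions 12 enzyme genes were higher and 11 lower (15% and 13.8%, beside 16.9% and 13.9% of all genes tested), of which 6 and 7 were other enzymes. Without replicate 2 there were 14 and 16 (17.5% and 20%, beside 22.5% and 19.8%), of which 7 and 12 were other enzymes. Without replicate 3, which stood apart, there were 30 and 24 (37.5% and 30%, beside 36.4% and 34.8%), and the dioxygenases then held 11 higher and 4 lower. At a threshold of 0.01 on the adjusted p, 14 enzyme genes were higher and 16 lower, where 41.6% of all genes passed (21.5% higher and 20.2% lower). With the block 29 enzyme genes were higher and 22 lower, where 71.8% of all genes passed (36.6% higher and 35.2% lower). At a log2-fold change of at least 1, 6 enzyme genes were higher and 2 lower, where 15.2% and 4.91% of all genes were.

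**Figure D1:**
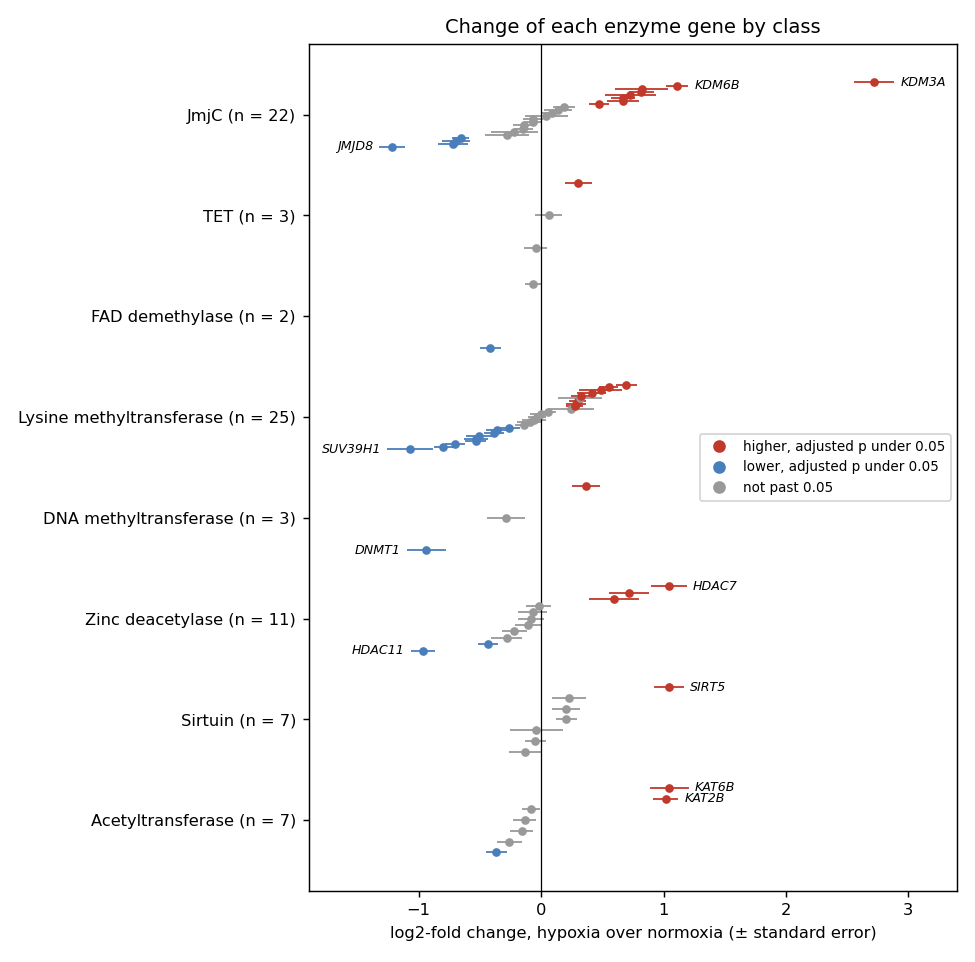
The log2-fold change of each of the 80 enzyme genes (horizontal axis, hypoxia over normoxia, bars are the standard error of the fit on 3 and 3 libraries) is drawn by enzyme class, with genes past an adjusted p of 0.05 in red or blue and those with a change beyond 0.9 named. KDM3A lies alone at 2.72, and each of the larger classes has genes on both sides of 0.

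KDM3A carried the largest change of any enzyme gene. It encodes a demethylase of mono- and dimethylated histone H3 lysine 9, a repressive mark, and lies on chromosome 2 (GRCh37, chr2:86668271-86719839). Its level was 29.5, 29.9 and 24.9 CPM in normoxia replicates 1 to 3, and 196, 218 and 143 CPM in hypoxia. The groups were far apart, with replicate 3 the lowest in each. The change was 6.59-fold (log2 2.72 ± 0.17 standard error, SE, adjusted p = 4.0e-05). Its paralog KDM3B, an H3 lysine 9 demethylase as well, went from 134, 140 and 121 CPM to 183, 191 and 175 CPM, again without overlap (log2 0.47 ± 0.082, adjusted p = 0.0019). JMJD1C, the remaining relative of this family, held 71.9, 66.2 and 46.7 CPM in normoxia and 113, 119 and 75.2 CPM in hypoxia. Its hypoxia libraries were all above its normoxia ones, though hypoxia replicate 3 exceeded normoxia replicate 1 by little (log2 0.73 ± 0.21, adjusted p = 0.017). That call was lost without replicate 1 (adjusted p = 0.059) or without replicate 2 (0.082), and also with hypoxia replicate 1 or 2 alone left out (0.060 each).

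Within the KDM4 family, of which KDM4A, KDM4B and KDM4C act on trimethylated H3 lysine 9 and lysine 36, KDM4B moved against its relatives. KDM4A rose from 41.6, 44.5 and 37.1 CPM to 78.9, 65.8 and 72.4 CPM (log2 0.82 ± 0.10, adjusted p = 0.00045). KDM4C rose from 20.1, 19.1 and 18.5 CPM to 32.3, 34.6 and 25.04 CPM (log2 0.67 ± 0.13, adjusted p = 0.0031). For both genes the ranges of the conditions were separate. KDM4B, on chromosome 19 (chr19:4969124-5153608), fell from 250, 246 and 234 CPM to 156, 157 and 150 CPM (log2 −0.66 ± 0.068, adjusted p = 0.00021). It was the most abundant dioxygenase per length in normoxia, at 43.4 CPM per kb of exon, and its libraries agree closely within each condition. KDM4D was scarce, with 2.84, 2.98 and 1.94 CPM in normoxia and 3.98, 4.48 and 5.25 CPM in hypoxia (log2 0.82 ± 0.21, adjusted p = 0.012, or 0.056 without replicate 1).

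The KDM5 enzymes remove di- and trimethylation from H3 lysine 4, a mark of active promoters. KDM5B rose from 202, 219 and 189 CPM to 335, 351 and 286 CPM (log2 0.67 ± 0.099, adjusted p = 0.00092). KDM5A held 81.4, 80.9 and 80.3 CPM in normoxia against 85.6, 91.3 and 80.6 CPM, and the conditions overlapped (log2 0.086, 95% interval −0.089 to 0.26). KDM5C had CPM close to those of KDM5B in normoxia, at 201, 186 and 224, and stood at 232, 217 and 246 CPM in hypoxia. Per kb of exon KDM5C was above KDM5B in normoxia, at 29.6 against 20.9 CPM. The ranges of KDM5C overlapped between the conditions, yet each replicate number was higher in hypoxia. The log2-fold change of KDM5C was 0.19 ± 0.092 with an adjusted p of 0.11, and the block lowered that p to 0.010.

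The KDM6 pair, demethylases of the Polycomb mark at H3 lysine 27, also moved unequally. KDM6B, the inducible member on chromosome 17, rose from 35.1, 37.9 and 38.9 CPM to 84.7, 84.1 and 72.7 CPM (log2 1.11 ± 0.091, adjusted p = 9.4e-05). KDM6A, on chromosome X, held 44.3, 44.0 and 39.6 CPM in normoxia and 51.7, 49.8 and 39.6 CPM in hypoxia. Replicate 3 of KDM6A was the same in both conditions to the decimals given, and the other hypoxia libraries were above all normoxia ones (log2 0.14, 95% interval −0.13 to 0.41, adjusted p = 0.32). Without replicate 3 KDM6A passed (adjusted p = 0.015), as it did without hypoxia replicate 3 alone (0.035).

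**Figure D2:**
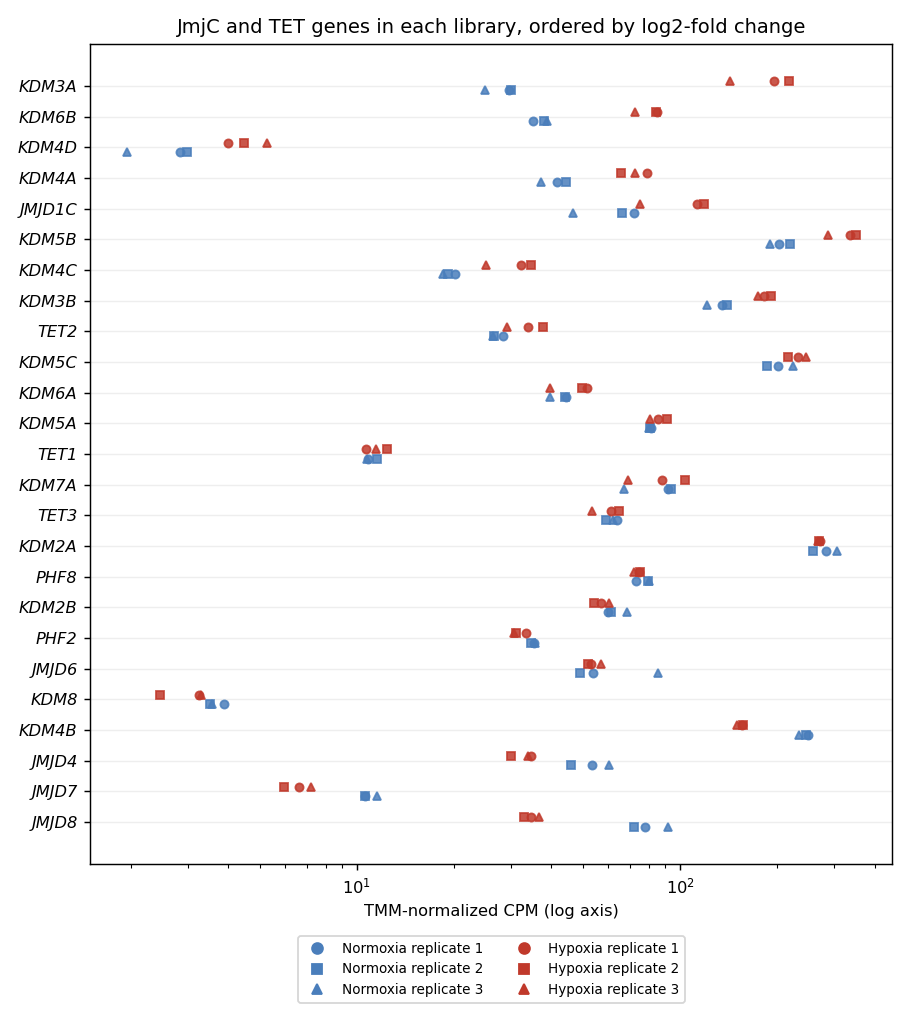
The TMM-normalized CPM (horizontal, log axis) of the 25 JmjC and TET genes is drawn for each library, blue for normoxia and red for hypoxia, with the replicate number as the marker and genes ordered by log2-fold change. Ranges are separate in 15 of 25 genes, from KDM3A at the top (24.9 to 29.9 against 143 to 218 CPM) to JMJD8 at the bottom (72.1 to 91.6 against 32.8 to 36.5 CPM).

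The genes named JMJD4, JMJD7 and JMJD8 fell, and JMJD6 did not pass. These encode JmjC proteins whose best known activities, where established, are on proteins other than histone tails: JMJD4 hydroxylates a translation termination factor, JMJD6 and JMJD7 act on further proteins, and JMJD8 resides in the endoplasmic reticulum. JMJD8 (chr16:731666-734446) fell from 78.1, 72.1 and 91.6 CPM to 34.6, 32.8 and 36.5 CPM (log2 −1.22 ± 0.11, adjusted p = 0.00012). JMJD4 fell from 53.4, 45.9 and 60.3 CPM to 34.7, 29.99 and 33.8 CPM (log2 −0.70 ± 0.12, adjusted p = 0.0015). JMJD7 fell from 10.6, 10.6 and 11.6 CPM to 6.62, 5.93 and 7.22 CPM (log2 −0.72 ± 0.13, adjusted p = 0.0019). In each of the 3 the conditions did not overlap. JMJD6 had 85.5 CPM in normoxia replicate 3 and 49.2 to 56.8 CPM in the other 5 libraries (log2 −0.22, 95% interval −0.67 to 0.23).

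The same 3 genes share exon bases with neighbours. Of the counted exon bases, 31.2% of JMJD8 lay over STUB1 and 21.7% of JMJD4 over SNAP47, both on the opposite strand, and 52.2% of JMJD7 lay in the readthrough gene JMJD7-PLA2G4B on the same strand, which had 0 reads in all 6 libraries. STUB1 itself changed by −0.67 (adjusted p = 0.0016) and SNAP47 by −0.26 (adjusted p = 0.022). The strand setting of the counting is not given in the sources used here, so reads of JMJD8 and JMJD4 and their antisense neighbours may be split or dropped. Exons that JMJD7 shares with the readthrough gene are on 1 strand, so under any strand setting their reads may have been dropped for both genes. The values of all 3 genes are uncertain to that extent. Without JMJD4, JMJD6, JMJD7 and JMJD8, which include 3 of the 4 dioxygenases that fell, the dioxygenases held 9 higher and 1 lower of 21, with a median of 0.14. Without those acting mainly on other substrates, the other enzymes held 13 higher and 13 lower of 48, with a median of −0.066. Among all genes tested 30.4% were higher and 29.1% lower.

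The TET genes differed little between the conditions. TET2 held 28.3, 26.5 and 26.4 CPM in normoxia and 33.8, 37.7 and 29.1 CPM in hypoxia, so that the ranges were separate by less than 1 CPM (log2 0.30 ± 0.11, adjusted p = 0.042). Its call was lost with relative log expression factors (adjusted p = 0.052), with no filter on low counts (0.051) and with any of normoxia replicates 1 to 3, hypoxia replicates 1 or 2, or number 1 or 2 of both conditions left out (0.089 to 0.30). TET3, the most abundant, had 63.6, 59.1 and 62.1 CPM against 61.2, 64.6 and 53.4 CPM (log2 −0.045, 95% interval −0.26 to 0.17). TET1 had 10.8, 11.6 and 10.7 CPM against 10.7, 12.4 and 11.5 CPM (log2 0.060, 95% interval −0.19 to 0.31). The conditions overlapped in TET1 and TET3.

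The remaining dioxygenases that did not pass were KDM2A and KDM2B, which act on H3 lysine 36 and bind unmethylated CpG DNA, KDM7A, PHF2 and PHF8, which read H3 lysine 4 methylation through a PHD finger, and KDM8. Over all 12 dioxygenases that did not pass, log2-fold changes ran from −0.28 (KDM8) to 0.19 (KDM5C), and the 95% intervals together from −0.69 to 0.45. Ranges overlapped between conditions in 10 of the 12. The exceptions were KDM8 and PHF2, whose hypoxia libraries were all below the normoxia ones. KDM2A was among the most abundant, between 258 and 306 CPM in normoxia and between 268 and 271 CPM in hypoxia.

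Promoter sequences were set beside these changes because HIF binds DNA at a short core, ACGTG or GCGTG. RefSeq promoters (GRCh38.p14) of 300 bases, from 250 before to 50 after 1 start site a gene, were given for 74 of the 80 enzyme genes and searched for either core on both strands, the palindrome CACGTG counting on each. A core was in 48.4% of all 35116 promoters, in 16 of 24 dioxygenase promoters (66.7%) and in 33 of 50 promoters of other enzymes (66.0%). Both cores hold the letters CG, and the share over all promoters was not matched for base content or limited to genes tested here. Among dioxygenases a core was in 6 of 9 that rose, 3 of 4 that fell and 7 of 11 that did not pass. The letters were thus found on both sides and in genes without a call. The 30-base stretches given here have 1 match marked each, in genes that rose (KDM3A, KDM4A, KDM5B, TET2), fell (JMJD8, JMJD4, KDM4B) and did not pass (KDM6A, TET3), read 5′ to 3′ on the gene's strand with the marked core in capitals. In KDM4B, TET2, KDM6A and TET3 the marked core is part of the palindrome, which also matches on the other strand, and the KDM6A stretch holds a further GCGTG in lower case.
KDM3A: ccgggaggctgtGCGTGtcttgtgagagct
KDM4A: ggtggctgcggcGCGTGctcattggctggt
KDM5B: cggaggcgcacgGCGTGggcttgcggcgag
TET2: tctactcagcccACGTGgctaaagtaaaca
JMJD8: ccaaggttcccgGCGTGcagcgcggctgcc
JMJD4: agccgcgcgcatGCGTGcaggcccggagcc
KDM4B: gtcagcgggcACGTGggtgggcgccggcgt
KDM6A: tcaacaaaggtcACGTGaggcgtgcgggcc
TET3: ccccgggcgagcACGTGccgcggtgcgcgg
By exact match to GRCh37, these lie at chr2:86668456-86668485 (KDM3A, plus strand), chr1:44115729-44115758 (KDM4A, plus), chr1:202777596-202777625 (KDM5B, minus), chr4:106067007-106067036 (TET2, plus), chr16:734336-734365 (JMJD8, minus), chr1:227923093-227923122 (JMJD4, minus), chr19:4968874-4968903 (KDM4B, plus), chrX:44732328-44732357 (KDM6A, plus) and chr2:74211999-74212028 (TET3, plus). The core lies 24 bases before the RefSeq start in KDM3A, 77 in KDM4A, 62 in KDM5B, 11 in TET2, 17 in JMJD8, 105 in JMJD4, 238 in KDM4B, 92 in KDM6A and 24 in TET3. The start site of the table need not be that of the counted gene: the stretches of KDM3A, JMJD8 and KDM5B lie wholly in exons counted for the gene, that of JMJD4 in part (20 bases) and that of TET2 in part (5 bases), and the other 4 outside them. A match is a description of letters and not a binding site.

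The make-up of dioxygenase mRNA shifted more than its sum. Per kb of exon, the 25 genes summed to 310 to 328 CPM in normoxia and 323 to 353 CPM in hypoxia, with the ranges overlapping, while the other 55 enzymes summed to 885 to 933 and 818 to 864 CPM. KDM3A made up 1.80% ± 0.22 (SD, n = 3) of the dioxygenase sum in normoxia and 11.0% ± 1.81 in hypoxia, and went from rank 61 to rank 6 among the 80 genes. KDM4B made up 13.6% ± 0.79 and then 8.05% ± 0.21. JMJD8 went from 11.8% ± 1.13 to 4.75% ± 0.49, and KDM5B from 6.55% ± 0.67 to 9.68% ± 0.56. KDM2A was near the top in both, at 11.5% ± 0.64 and 10.2% ± 0.46. Thus in normoxia KDM4B, JMJD8 and KDM2A had the largest shares, and in hypoxia KDM3A, KDM2A and KDM5C (9.89% ± 1.09), whose replicate values overlap with each other.

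**Figure D3:**
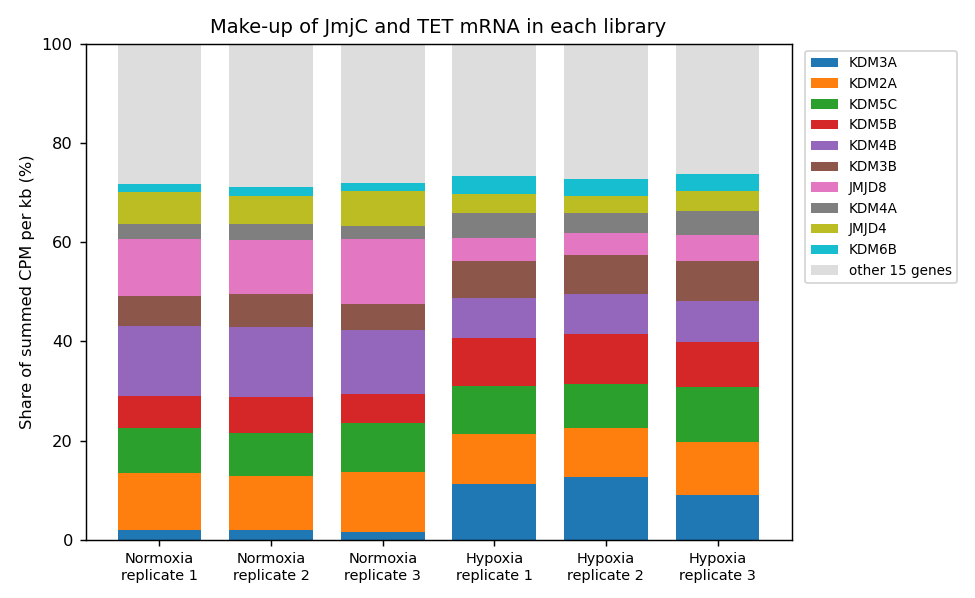
Each bar is 1 library and splits its summed JmjC and TET level (CPM per kb of exon, 100% in all) by gene, with 10 genes in colour and the other 15 in grey. The KDM3A segment is 1.55% to 1.97% in normoxia and 9.0% to 12.6% in hypoxia, and the KDM4B segment 12.7% to 14.2% and 7.92% to 8.29%.

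Ratios of close paralogs within a library need no scaling between libraries. Of 22 pairs, 16 had ratios whose ranges did not overlap between the conditions. Ranges of single genes were separate in 67.3% of all tested genes, and no pairs outside the enzyme genes were examined. Each of these reached p = 0.1 in the exact two-sided permutation test, the smallest that 3 against 3 can give (0.14 after adjustment over the 22 pairs), so none could pass 0.05. The KDM3A to KDM3B log2 ratio of counts went from −2.23 ± 0.044 (SD, n = 3) to 0.00028 ± 0.25, that is, to near equal counts. The KDM4A to KDM4B ratio went from −2.57 ± 0.096 to −1.10 ± 0.14, and the KDM6A to KDM6B ratio from 0.19 ± 0.15 to −0.78 ± 0.084, which turned the order of that pair. The EZH1 to EZH2 ratio of counts changed sign as well, from −0.53 ± 0.082 to 0.22 ± 0.26. Hypoxia replicate 3 of that pair was near 0, at −0.0061. Per kb of exon, however, EZH2 stayed above EZH1, at 20.6 against 9.23 CPM in normoxia and 19.8 against 14.96 CPM in hypoxia. Between acetyltransferases the KAT2A to KAT2B ratio fell by 1.28 and the KAT6A to KAT6B ratio by 1.13. KDM2A to KDM2B, KDM4A to KDM4C, KDM5B to KDM5C, PHF2 to PHF8, EHMT1 to EHMT2 and SETDB1 to SETDB2 overlapped.

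**Figure D4:**
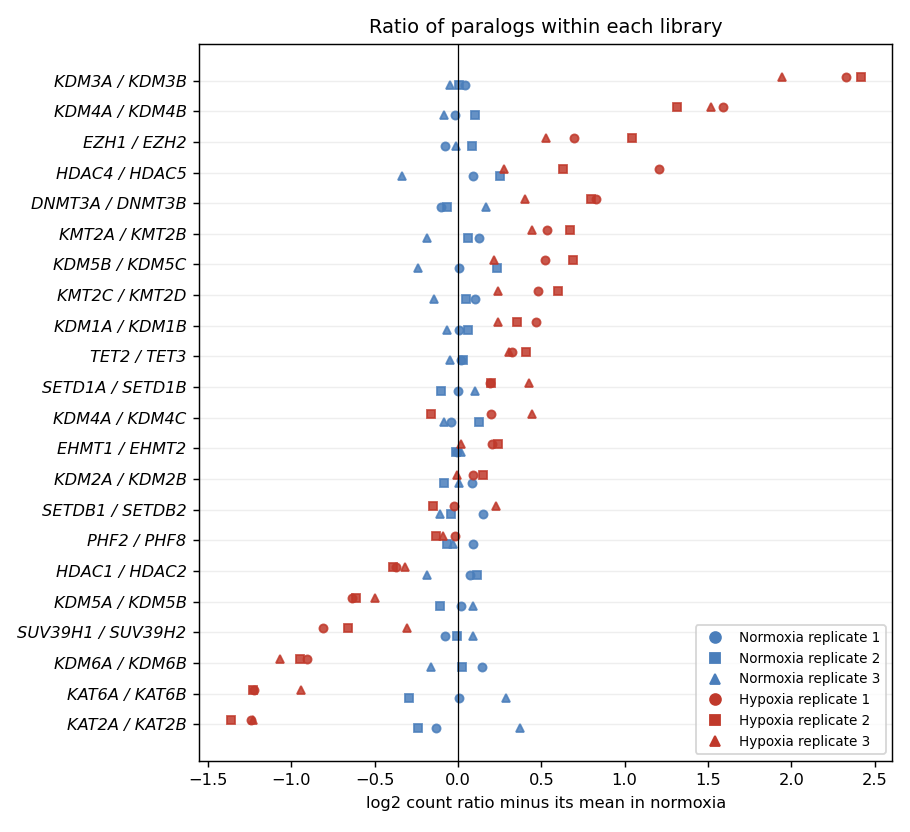
The log2 ratio of counts of each of 22 paralog pairs within each library is drawn minus its mean in normoxia (horizontal axis), blue for normoxia and red for hypoxia, with the replicate number as the marker. The ratio of KDM3A to KDM3B rose by 2.23 and that of KDM4A to KDM4B by 1.48, and at the other end KAT2A to KAT2B fell by 1.28.

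Among the 55 other enzymes, the lysine methyltransferases were the largest class and held 8 higher and 9 lower of 25. These are 32% and 36%, beside 30.4% and 29.1% of all genes tested. EZH1, a Polycomb methyltransferase of H3 lysine 27 typical of resting cells, rose from 42.0, 44.3 and 43.5 CPM to 67.1, 76.2 and 67.1 CPM (log2 0.70 ± 0.083, adjusted p = 0.00036). EZH2, its relative of dividing cells, held 60.4 to 64.1 CPM in normoxia and 53.5 to 67.4 CPM in hypoxia (log2 −0.055, 95% interval −0.28 to 0.17). KMT2A, an H3 lysine 4 methyltransferase, rose from 153, 142 and 144 CPM to 205, 231 and 207 CPM (log2 0.55 ± 0.078, adjusted p = 0.00076). The ranges were separate in EZH1 and KMT2A and overlapped in EZH2. KMT2E followed in size (log2 0.49 ± 0.18, adjusted p = 0.044), with overlapping ranges, 39.8 to 57.8 against 55.7 to 80.4 CPM, and an adjusted p of 0.075 to 0.17 when normoxia replicate 1 or 3, hypoxia replicate 1 or 2, or number 1 or 2 of both conditions was left out. SETD5, with the highest level per length of the class, went from 34.1 to 42.0 CPM per kb (log2 0.30 ± 0.068, adjusted p = 0.0066, or 0.13 without replicate 1 and 0.093 without replicate 2).

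The H3 lysine 9 methyltransferases SUV39H1, SUV39H2, EHMT1 and EHMT2 were among the 9 that fell. SUV39H1, an enzyme of constitutive heterochromatin, fell from 51.5, 48.3 and 63.1 CPM to 22.4, 21.4 and 33.4 CPM (log2 −1.07 ± 0.19, adjusted p = 0.0018). SUV39H2, EHMT1 and EHMT2 fell by 0.51, 0.39 and 0.54 on the log2 scale (adjusted p = 0.0054, 0.0038 and 0.0012), with separate ranges. SETDB1, which also methylates that residue, rose instead by 0.32 (adjusted p = 0.012), and SETDB2 at 4.76 to 7.60 CPM did not pass. Of the SETDB2 exon bases, 41.3% lay in the readthrough gene SETDB2-PHF11 on the same strand, so its level is uncertain. EHMT2 is listed on 7 contigs of the assembly, so its reads may have been lost to multiple matches. SETD1A and SETD1B, the methyltransferases of the COMPASS complexes for H3 lysine 4 trimethylation, fell by 0.53 and 0.80 (adjusted p = 0.0024 and 0.00019). SETD1B went from 59.7, 59.0 and 61.8 CPM to 37.1, 33.7 and 32.9 CPM, and the conditions were well apart. SETD6, which methylates nonhistone proteins, fell by 0.70 ± 0.084 (adjusted p = 0.00037), and 19.5% of its exon bases lay over CNOT1 on the opposite strand.

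DNMT1, the maintenance DNA methyltransferase, fell from 205, 177 and 223 CPM to 96.3, 87.8 and 132 CPM (log2 −0.94 ± 0.16, adjusted p = 0.0017). The conditions did not overlap, and replicate 3 was the highest in each. DNMT3A, a de novo enzyme, was far less abundant at 7.01 to 7.398 CPM and 8.84 to 9.70 CPM (log2 0.37 ± 0.11, adjusted p = 0.023). Its call was lost when normoxia replicate 1 or 2, any hypoxia replicate, or number 1 or 2 of both conditions was left out (adjusted p = 0.055 to 0.18). DNMT3B, with 19.9 to 23.3 CPM in normoxia and 15.1 to 22.3 CPM in hypoxia, overlapped between the conditions and did not pass (log2 −0.29, 95% interval −0.65 to 0.076). Of the flavin-dependent demethylases, KDM1B fell from 71.6, 66.2 and 75.01 CPM to 50.6, 51.5 and 57.3 CPM (log2 −0.42 ± 0.087, adjusted p = 0.0045, or 0.099 without replicate 1). KDM1A, second of all 80 genes per length, differed by −0.063 (95% interval −0.22 to 0.091).

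The zinc-dependent deacetylases held 3 higher and 2 lower of 11 (27.3% and 18.2%, beside 30.4% and 29.1% of all genes tested). HDAC7, a class IIa enzyme with little deacetylase activity of its own, rose from 30.6, 32.7 and 37.4 CPM to 61.6, 61.5 and 84.3 CPM (log2 1.04 ± 0.14, adjusted p = 0.00068). HDAC9 and HDAC4 of the same class were scarce, at 3.47 to 4.19 and 3.04 to 4.11 CPM in normoxia and 5.81 to 7.19 and 4.49 to 6.695 CPM in hypoxia (log2 0.72 and 0.60, adjusted p = 0.0059 and 0.035). The remaining class IIa gene, HDAC5, overlapped between the conditions and did not pass (log2 −0.11). HDAC9 lost its call without replicate 1 (adjusted p = 0.081), and HDAC4 when normoxia replicate 1 or 3, hypoxia replicate 1 or 2, or number 1 or 2 of both conditions was left out (0.070 to 0.29). HDAC11 fell from 43.2, 48.2 and 41.3 CPM to 20.7, 23.05 and 24.1 CPM (log2 −0.97 ± 0.098, adjusted p = 0.00020). HDAC1, a class I enzyme and the most abundant of the 80 genes per length in both conditions, went from 189, 187 and 191 CPM to 134, 131 and 155 CPM (log2 −0.44 ± 0.083, adjusted p = 0.0029, or 0.075 without replicate 1). HDAC2 and HDAC3, of the same class, did not pass.

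SIRT5, a mitochondrial desuccinylase, was the one sirtuin of 7 that passed (14.3%, where 59.5% of all genes tested passed). It rose from 19.8, 23.5 and 17.4 CPM to 42.4, 44.4 and 38.5 CPM (log2 1.04 ± 0.12, adjusted p = 0.00035), without overlap. Under the block 4 sirtuins were higher, where 36.6% of all genes were. SIRT1, SIRT2 and SIRT7 then passed too (adjusted p = 0.036, 0.031 and 0.017, against 0.19, 0.072 and 0.15 without the block). SIRT7, a nucleolar enzyme and the most abundant of the class per length, held 35.9, 36.0 and 44.8 CPM in normoxia and 43.9, 41.7 and 48.9 CPM in hypoxia.

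Of 7 acetyltransferase genes, 2 were higher and 1 was lower (28.6% and 14.3%, beside 30.4% and 29.1% of all genes tested). KAT2B, also known as PCAF, rose from 22.1, 22.6 and 18.4 CPM to 40.5, 42.2 and 44.9 CPM (log2 1.02 ± 0.10, adjusted p = 0.00020). KAT6B, a MYST family enzyme, rose from 33.8, 40.0 and 28.2 CPM to 77.4, 76.3 and 57.3 CPM (log2 1.05 ± 0.16, adjusted p = 0.0010). In both the hypoxia libraries lay above all normoxia ones. KAT8, the H4 lysine 16 acetyltransferase, fell from 36.6, 37.4 and 40.4 CPM to 27.6, 31.0 and 30.02 CPM (log2 −0.37 ± 0.085, adjusted p = 0.0069, or 0.11 without replicate 1 and 0.058 with upper-quartile factors). KAT2A, the relative of KAT2B and the most abundant of the class per length, was lower with a log2-fold change of −0.26 that did not pass (adjusted p = 0.059). With the block it passed (0.0024), as did KAT7 (0.022 against 0.17). The class then held 3 lower genes of 7, where 35.2% of all genes were lower.

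Partners of these enzymes, taken from lists chosen with earlier results of these data known, are given by their counts, to be read against the 30.4% higher and 29.1% lower of all genes. Of 9 partners of Polycomb repressive complex 2 (PRC2), 5 fell, led by RBBP7 (−0.95) and PHF19 (−0.71), and AEBP2 rose (0.48). Of 12 genes on the COMPASS list 8 fell, led by HCFC1 (−0.73) and DPY30 (−0.69). KMT2E on that list rose, but it is among the 80 enzyme genes already described and is not a further partner. Among 21 partners of deacetylase complexes 6 rose, RCOR2 (0.96) and SAP30 (0.84) the most, and 4 fell, MTA2 (−0.86) and CHD4 (−0.75) the most. The medians of these lists were −0.41, −0.38 and −0.0077, and the shares of the deacetylase partners (28.6% higher and 19% lower) were near or under those of all genes. With the block those partners held 7 higher and 7 lower.

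Of 10 genes that guide or remove DNA methylation, UHRF1, which brings DNMT1 to replicating DNA, fell by 1.76, and TDG, which excises oxidized cytosine, by 0.49, while GADD45A (2.04) and CXXC4 (1.52) rose, with 3 higher and 4 lower in all. The list of 7 JmjC proteins outside the name pattern held 0 higher and 4 lower, and 6 were lower with the block. The 4 were the ribosomal oxygenase RIOX1 (−1.65), HR (−0.79), RIOX2 (−0.77) and HIF1AN (−0.36), the asparagine hydroxylase of HIF. Methyltransferases of other names held 2 higher (PRMT2, 0.44, and NSD3, 0.35) and 9 lower of 19 tested, with PRMT6 (−1.23) and NSD1 (−0.80) lowest. Other acetyltransferases held 3 higher (TAF1, 0.76, and CREBBP, 0.46, the most) and 4 lower of 13, with HAT1 (−1.08) and NAA60 (−0.50) lowest. Enzymes that make or use cofactors held 2 higher, LDHA (1.66) and NAMPT (0.70), and 13 lower of 19, with OGDH (−1.02), which consumes 2-oxoglutarate, and FH (−0.93) lowest.

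Most listed genes of cell division fell as well. Of 22 proliferation genes 21 passed as lower, MCM5 (−1.67) and MCM6 (−1.57) the most, and their summed level was 5309 to 6059 CPM in normoxia and 2579 to 3897 CPM in hypoxia, highest in replicate 3 of each condition. DNMT1 and SUV39H1 had that same order of libraries within each condition. EHMT2 and JMJD8, which fell, had it too, as did KDM5C and HDAC2, which did not pass. These genes are examples, and the order was not counted over all enzyme genes. The part of proliferation in the changes of enzyme genes was not tested.

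Exon length differed between the genes that rose and those that fell. The 9 dioxygenases that rose had a median counted exon length of 6813 bases, the 4 that fell 2366.5 and the 12 that did not pass 7047. For other enzymes the medians were 6863 bases in the 15 that rose, 3607.5 in the 14 that fell and 3467.5 in the 26 that did not pass, so those without a call were about as short as those that fell. Of the 42 enzyme genes above the upper quartile of length of all tested genes, 16 were higher and 6 lower, where 36.7% and 23.5% of all genes of that length were. Of the 23 at or under the median length 1 was higher and 9 lower, where 23.9% to 30% of all genes in the 2 shorter bins of length were higher and 31.3% to 31.7% lower. Over all tested genes the median log2-fold change went from −0.075 in the shortest of 4 equal bins of length through −0.017 and 0.024 to 0.14 in the longest. KDM3A, with 4918 bases, lay just under the longest bin. The part of length in these calls was not tested.

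**Figure D5:**
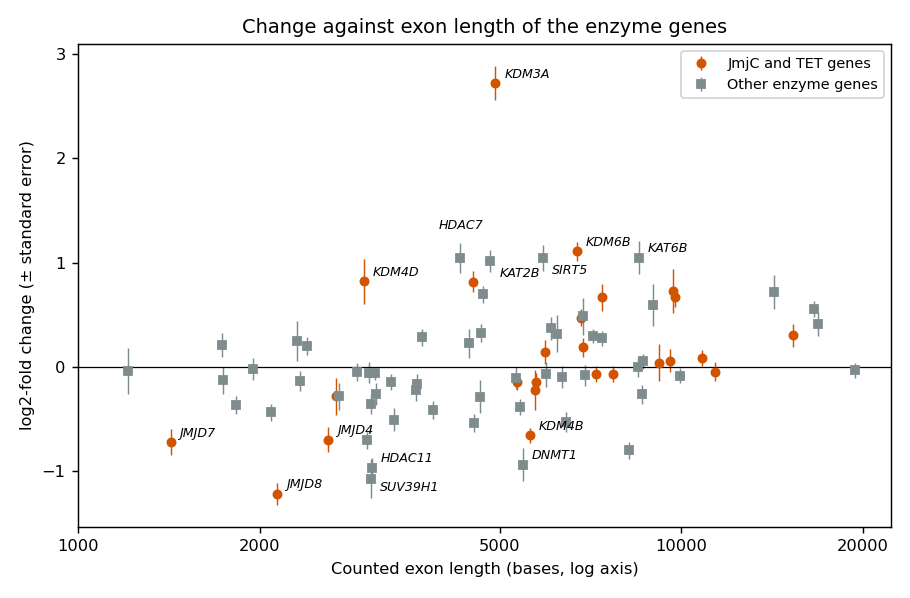
The log2-fold change (vertical axis, bars are the standard error) of the 80 enzyme genes is drawn against counted exon length in bases (log axis), orange circles for JmjC and TET genes and grey squares for other enzymes. JMJD7, JMJD8 and JMJD4 are among the shorter genes and fell, and KDM4D, with 2972 bases, was the shortest that rose.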

How the data were processed

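The 6 RNA-seq libraries of T47D cells (3 normoxia, 3 hypoxia) were used. The authors deposited raw read counts per RefSeq gene. Per the submitters' processing notes, FastQC 0.11.5, STAR 2.5.2a (hg19, that is GRCh37) and featureCounts 1.5.1 were used on stranded mRNA libraries. Strand setting and treatment of multiple matches are not given in the sources used here. Members and gene lists were chosen with earlier results of these data known. From the counts (32989104 to 89883409 per library), genes were kept by filterByExpr (minimum count 10, minimum total 15), scaled by TMM and tested with edgeR 4.0.16 (R 4.3.3; quasi-likelihood, two-sided, Benjamini-Hochberg over 15657 genes, threshold 0.05), whose steps were checked on simulated data. DESeq2 1.42.0, edgeR's exact test (which the study's methods name), other factors, no filter and left-out replicates were alternatives. Levels between genes are CPM per kb of counted exon on primary chromosomes. Paralog ratios used counts plus 0.5 and exact permutation tests. Intervals are 95% from the fit.

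Replicate numbers were taken from the labels, and the study's methods call the samples paired. Deviations of same-numbered libraries from their condition means correlated at 0.43, 0.50 and 0.62. Values for differently numbered libraries are not given, and replicate 3 stood apart in both conditions. The correlations therefore do not show that each number is a pair. A fit with the number as a block was made. It lowered the common biological coefficient of variation, a measure of spread between libraries, from 0.14 to 0.075. That value alone does not show that each number is a pair either.

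All JmjC and TET genes are named. Of every other class, the 3 largest rises and falls past the threshold and the gene of the highest level are named, and of lists the 2 largest changes each way. RIOX2 and HIF1AN are named beyond that rule, so that all 4 genes that fell on their list are given. Paralog pairs whose ratios were separate may be named. EZH2, HDAC2, HDAC3, HDAC5, DNMT3B, SUV39H2, EHMT1, EHMT2, SETDB1, SETDB2, SETD1A, KAT7, SIRT1 and SIRT2 also appear as relatives or as genes whose call changes with the block, some chosen after their values were seen. One marker gene and the summed level of its list are not reported here. Figures were drawn with matplotlib 3.10.9.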

Additional observations from a re-analysis of the deposited data

How the results depend on the processing

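Upper-quartile factors raised the median of all genes from 0.028 to 0.19. The medians of dioxygenases and other enzymes became 0.22 and 0.095, but relative to all genes the dioxygenase median was 0.031 (0.032 in the main analysis). The share of calls that were higher went from 51.1% to 64.5% over all genes and from 51.7% to 62.1% in other enzymes. Under these factors PHF2 (0.011), KDM2A (0.092), PHF8 (0.090), TET3 (0.11), KDM2B (0.017) and KDM1A (0.095) changed sign, among 20 of the 80 enzyme genes that did so, none of which passed with either scaling. These factors lost 3 calls (KAT8, KMT5A and SETD2, lower) and added 5 (KDM5A, KDM5C, SETD7, SIRT2 and SIRT7, higher). At an adjusted p under 0.01, 14 enzyme genes were higher and 16 lower, of which 8 and 12 were other enzymes. Without the 4 JMJD-numbered genes, 1 dioxygenase was lower and the median was 0.14. Without those acting mainly on other substrates, 13 other enzymes were higher and 13 lower, with a median of −0.066. DESeq2 called 24 enzyme genes higher and 19 lower, and the edgeR exact test 24 and 18.

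With the replicate block 29 enzyme genes were higher and 22 lower, where 36.6% and 35.2% of all genes were. The block added KDM5C, SIRT1, SIRT2, SIRT7 and KMT5C as higher and KAT2A, KAT7, SETD3 and HDAC10 as lower, and changed no other call among the 80.

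Leaving out libraries gave 12 to 30 enzyme genes higher and 11 to 24 lower, 6 to 11 dioxygenases higher, 6 to 19 other enzymes higher and 7 to 20 lower. Over all genes 2648 to 5751 were higher and 2191 to 5506 lower, with the lowest without replicate 1, where 2 libraries a condition remained. The dioxygenase median ran from 0.0013 to 0.13, that of other enzymes from −0.098 to −0.042, and their difference (0.12) from 0.043 to 0.22. Genes that did not pass changed sign over these settings: JMJD6 ran from −0.39 to 0.060, KDM7A from −0.11 to 0.18, TET3 from −0.14 to 0.041 and KDM2A from −0.15 to 0.0035. The cause was not tested.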
